A study of Mus musculus with 12 samples.

Results

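Arntl, Clock, Npas2 and Arntl2 encode the activating arm of the mammalian circadian clock, and their 4 transcripts were followed in the hippocampus of mice kept in darkness. They were found by the gene name printed on the array, which gave 6 probes of 55681, and all 6 passed the filter on dim probes, so that 4 of the 24090 genes tested are described. The animals were 12 male adult wild-type mice under dark-dark conditions, each hybridised alone to a 1-colour Agilent array. The times were circadian time 0 (CT0, after 36 h of darkness, mice 1, 2 and 3), CT6 (42 h, mice 5, 6 and 7), CT12 (48 h, mice 10, 11 and 12) and CT18 (30 h, mice 14, 15 and 16). The series asked which hippocampal genes follow circadian time without a light cue. Hours in darkness and circadian time moved together, so that their parts in any difference cannot be told apart, and only 1 cycle was sampled.

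The mammalian clock is a transcriptional feedback loop. ARNTL, also called BMAL1, pairs with CLOCK through bHLH and PAS domains, and the pair binds E-box elements and drives the Per, Cry, Nr1d and Dbp genes. PER and CRY proteins then inhibit the pair, while the nuclear receptors REV-ERB alpha and REV-ERB beta, encoded by Nr1d1 and Nr1d2, repress Arntl and Clock themselves and compete with the activating ROR receptors. NPAS2 is the paralog of CLOCK, is rich in the forebrain and can take its place, and ARNTL2, or BMAL2, is the paralog of ARNTL. In rodents the hippocampus carries this loop outside the suprachiasmatic nucleus.

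Values are log2 intensities relative to the 75th percentile of each array, so that a level of 0 lies at that percentile. The scale of 1 probe was not set against that of another. Across arrays 59.3% to 67.1% of spots lay well above background, except on the array of CT0 mouse 3, at 77.1%. The library labelled CT12 mouse 11 stood apart: its values correlated at r 0.945 to 0.965 with those of the other 11 libraries, which correlated with each other at 0.984 to 0.995. Against the labelled tissue, all 9 of 9 markers of forebrain excitatory neurons lay below their median there, and Emx1 and Emx2 were not well above background. The summed level of that list was 17.0 in CT12 mouse 11, 58.8 in CT12 mouse 10 and 87.3 or more in each library at CT0, CT6 and CT18. The 6 measured cerebellar markers of 9 all lay above their median in CT12 mouse 11, by a median of 5.86 on the log2 scale. Results are therefore given with it and without it. In CT12 mouse 10 all 9 forebrain markers were also below their medians, while the thalamic list lay above by a median of 1.43 and the cerebellar list by 0.67. In whole tissue, fewer cells of a type and less RNA per cell cannot be told apart.

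Arntl, the obligate partner in the activating complex, was lowest at CT12 and highest at CT0. Its levels were 1.20, 1.57 and 1.47 in the CT0 mice, 1.24, 1.26 and 1.08 at CT6, 0.65, 0.66 and 0.80 at CT12, and 1.07, 1.08 and 1.12 at CT18. All 3 CT12 mice lay below the other 9, while CT18 overlapped CT6 and CT6 overlapped CT0. At 5.08% of all genes tested, 1 time lay wholly below the other 3. The means were 1.41 ± 0.19 at CT0, 1.19 ± 0.10 at CT6, 0.705 ± 0.09 at CT12 and 1.09 ± 0.03 at CT18 (SD, n = 3 each), and circadian time accounted for 87.8% of the variance over the 12 mice, against a median of 30.1% over all genes. CT12 mouse 11, far from the other libraries on forebrain genes, had an Arntl level between those of the other CT12 mice. The 5 endothelial markers had a summed level of 23.2 to 24.5 in the CT12 mice, against 25.8 to 30.6 at the other times. All 5 oligodendrocyte markers lay above their medians in each CT12 mouse, with median deviations of 0.46, 0.87 and 0.24. They also did so in CT0 mouse 2 (0.17), which had the highest Arntl level. The dentate granule cell list had a summed level of 3.38, 0.71 and 3.12 in CT12 mice 10, 11 and 12, and of 3.80 to 4.30 at CT0. At CT6 it was 2.58 to 3.43 and at CT18 4.12 to 5.01. The part of these cells in the Arntl values was not tested.

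The difference in Arntl between opposite times was large beside its replicate spread, yet it did not pass the adjustment over all genes. The level at CT12 minus that at CT0 was -0.71 ± 0.11 (SE), or 1.63-fold lower, which ranked 24 of 24090 genes by p (limma, unadjusted p 7e-05, adjusted p 0.0703). Without CT12 mouse 11 the difference was -0.69 ± 0.12 (limma, adjusted p 0.111), and without CT12 mouse 10 it was -0.68 (limma, adjusted p 0.107). It passed without CT12 mouse 12, at -0.76 (limma, adjusted p 0.0440), and with normexp background correction, at -0.66 (limma, adjusted p 0.0449), while the other alternatives gave adjusted p values of 0.0507 to 0.844. In that comparison 0.0083% of genes, or 2 of 24090, passed as lower and 0.054% as higher, with or without CT12 mouse 11 for the lower ones, and in 7.77% the CT12 mice lay wholly below the CT0 mice, as they did for Arntl. It held the same sign within each slide, at -0.55 on slide 1, -0.90 on slide 2 and -0.67 on slide 3. The smallest of these came from slide 1. Its CT0 array (mouse 1) had a local background of 100 units, against 25 to 37 on the other arrays. The scanner software's quality result for that array was to evaluate it, while every other array was in range. That mouse also had the lowest Arntl level of the CT0 mice. The choroid plexus list had a summed level of 364 in CT0 mouse 1, 213 in CT6 mouse 7 and 194 in CT18 mouse 14. In CT12 mice 10 and 11 it was 263 and 138, and elsewhere 3.14 or less. At each time Arntl was lower in these mice than in the rest. The part of background and of choroid plexus tissue in the Arntl values was not tested. Between CT18 and CT6 the difference was -0.10 ± 0.11 (SE; limma, adjusted p 1).

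Over the 4 times Arntl gave an unadjusted limma F test p of 0.000536 and an adjusted p of 0.110, where 0.178% of genes were called, and without CT12 mouse 11 an adjusted p of 0.118, where 0.245% were called. An exact permutation test of the F ratio over 369600 arrangements of the 12 mice gave an unadjusted p of 0.00149, in a setting where 10.6% of genes had an unadjusted limma p under 0.05. A 24-hour cosine placed the peak of Arntl at 0.549 h with an amplitude of 0.36 on the log2 scale, and its adjusted p was 0.0999 with limma, against 0.0706% of genes called. Without CT12 mouse 11 the peak was at 0.578 h and the adjusted p 0.0776, against 0.282% of genes called.

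**Figure D1:**
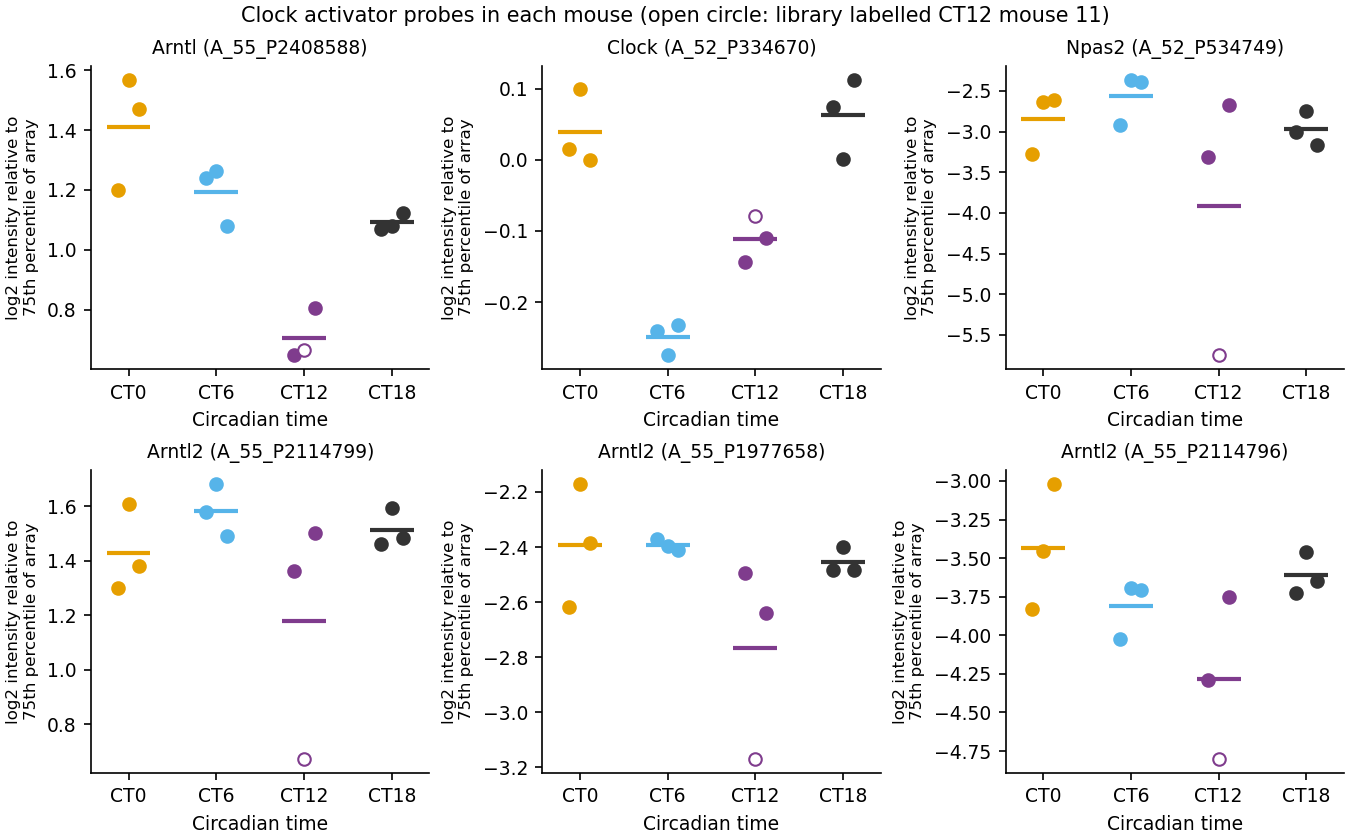
Log2 intensity, scaled to the 75th percentile of each array (vertical axes, each with its own range) for the 6 clock activator probes at CT0, CT6, CT12 and CT18 (horizontal axes). Points are mice, lines are means of 3 mice, and the open circle is the library labelled CT12 mouse 11. The CT12 mice lie below all others for Arntl, the CT6 mice below all others for Clock, and the open circle alone sets the low CT12 mean of Npas2 (-5.75).

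The Arntl promoter is shown because the REV-ERB and ROR receptors act on this gene through a known element. In RefSeq's GRCm38.p6 window of 250 bases before to 50 after the start site, chr7:113207261-113207560 on the plus strand, the letters AGTAGGTNA, searched on both strands and chosen with this promoter known, were found at 2 places. The first match began 8 bases before the start site, and the second began 28 bases after it, with a gap of 27 bases. RefSeq's other Arntl window, which begins at position 113207215, held 1 match, the first of these, 38 bases after the start site of that window. Of all 32851 promoter windows, 0.591% held the motif, in 189 genes, and the windows of Clock, Npas2 and Arntl2 did not. Neither the E-box CACGTG (7.15% of windows) nor the D-box TTATGTAA (0.938% of windows) was found in any window of the 4 genes. A match describes letters only. Capitals mark the motif in the stretches chr7:113207411-113207511 and chr7:113207526-113207555.
Arntl first match: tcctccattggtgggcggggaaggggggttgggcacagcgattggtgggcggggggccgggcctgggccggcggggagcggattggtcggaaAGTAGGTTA
Arntl second match: agggaaggcagaaAGTAGGTCAgggacgga

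Clock, the histone acetyltransferase partner of ARNTL, had a narrower range and another timing. Its levels were 0.02, 0.10 and -0.00 at CT0, -0.24, -0.27 and -0.23 at CT6, -0.14, -0.08 and -0.11 at CT12, and 0.07, 0.00 and 0.11 at CT18. The CT6 mice were wholly below the rest, the CT12 mice lay wholly between CT6 and the other times, and CT0 and CT18 overlapped. The means were 0.04 ± 0.05 at CT0, -0.25 ± 0.02 at CT6, -0.11 ± 0.03 at CT12 and 0.06 ± 0.06 at CT18 (SD, n = 3 each). Times accounted for 92.5% of the variance and slides for 0.257%.

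At CT18 the Clock level exceeded that at CT6 by 0.31 ± 0.08 (SE), or 1.24-fold. The unadjusted limma p was 0.00205 and the adjusted p 0.191, and without CT12 mouse 11, which is in neither group but adds to the shared spread, the adjusted p was 0.0670. Of all genes 0.0913% passed as higher at CT18 and 0.0415% as lower, 0.797% passed as higher without CT12 mouse 11, and in 11.3% the CT18 mice lay wholly above the CT6 mice, as they did for Clock. The dentate granule cell markers moved with it: their summed level was 4.12 to 5.01 in the CT18 mice, against 2.58 to 3.43 in the CT6 mice, and their part in the Clock difference was not tested. At CT12 that level was 3.38 in mouse 10, 3.12 in mouse 12 and 0.71 in mouse 11, and at CT0 it was 3.80 to 4.30. Within slides the difference was 0.32 on slide 1, 0.28 on slide 2 and 0.34 on slide 3. When slides were blocked and CT12 mouse 11 was left out, a setting chosen after the data were seen, the adjusted p was 0.0498 (limma), against 0.0670 to 1 under the other alternatives. Clock at CT12 minus CT0 was -0.15 ± 0.08 (SE; limma, adjusted p 0.456).

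Over the 4 times the exact permutation p of Clock, unadjusted, was 0.000455, below that of Arntl. The limma F test, which adds the spread shared by all genes, gave it an unadjusted p of 0.00684 and an adjusted p of 0.281. Its pooled SD within times was 0.04 on the log2 scale, and that of Arntl was 0.12. The cosine placed the peak of Clock at 19.7 h with an amplitude of 0.17, and its adjusted p was 0.237 with limma. Arntl and Clock had their lowest means 6 hours apart, at CT12 and at CT6.

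**Figure D2:**
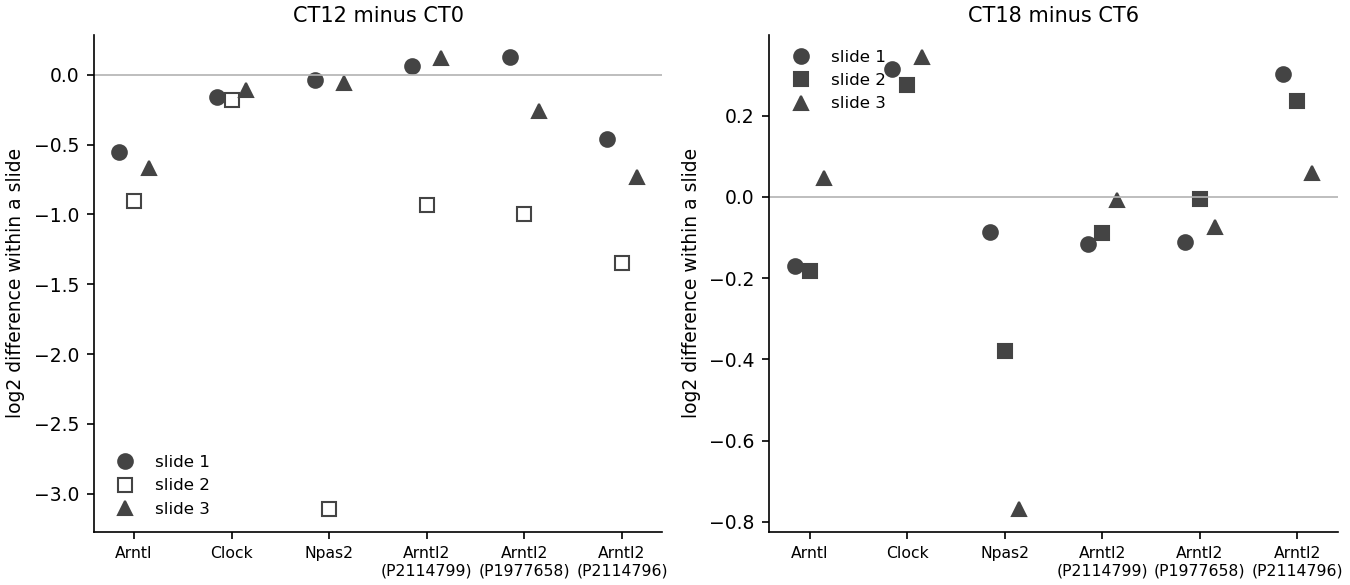
Differences in log2 intensity between 2 arrays of 1 slide (vertical axes) for the 6 probes (horizontal axes): CT12 minus CT0 on the left, CT18 minus CT6 on the right, with a shape for each of the 3 slides. Open squares use the library labelled CT12 mouse 11. All 3 slides are below 0 for Arntl on the left (-0.55, -0.90 and -0.67) and above 0 for Clock on the right (0.32, 0.28 and 0.34).

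Npas2 spanned 0.946 on the log2 scale over 11 libraries and was far lower in the remaining one. Its levels were -3.28, -2.64 and -2.62 at CT0, -2.92, -2.37 and -2.39 at CT6, -3.31, -5.75 and -2.68 at CT12, and -3.01, -2.75 and -3.16 at CT18. The value of -5.75 belongs to the library labelled CT12 mouse 11, where the probe was not well above background, and the 4 times otherwise overlapped. Its dim value there was 8.02-fold below the median of the other 11 and 5.42-fold below the lowest of them. In the deposited value table, whose scale step is not stated, these ratios were 5.90 and 4.34, so the size depends on the scale. The level at CT12 minus that at CT0 was -1.07 ± 0.63 (SE) over all mice and -0.15 ± 0.27 without CT12 mouse 11 (limma, adjusted p 0.493 and 0.930).

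The forebrain marker list moved with Npas2 in that library, with a median deviation of -5.48 on the log2 scale from each marker's own median over the libraries. The median deviation was -3.67 in the CA1 list and -1.67 in the dentate granule cell list, each with all 5 of 5 markers below their own medians. In CT12 mouse 10, with the second-lowest Npas2 level, the forebrain list was also the lowest of the remaining libraries, at a median deviation of -0.64. The next lowest in Npas2 did not follow this order. CT0 mouse 1, at an Npas2 level of -3.28, had a forebrain median deviation of -0.08, and CT18 mouse 16, at -3.16, had 0.18. The part of tissue makeup in the Npas2 values was not tested. Without CT12 mouse 11 times accounted for 30.4% of the variance of Npas2, against a median of 31.2% over all genes, and slides for 54.0%, against a median of 31.9%. The slide means, without that library, were -3.13, -2.58 and -2.71 on slides 1, 2 and 3.

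**Figure D3:**
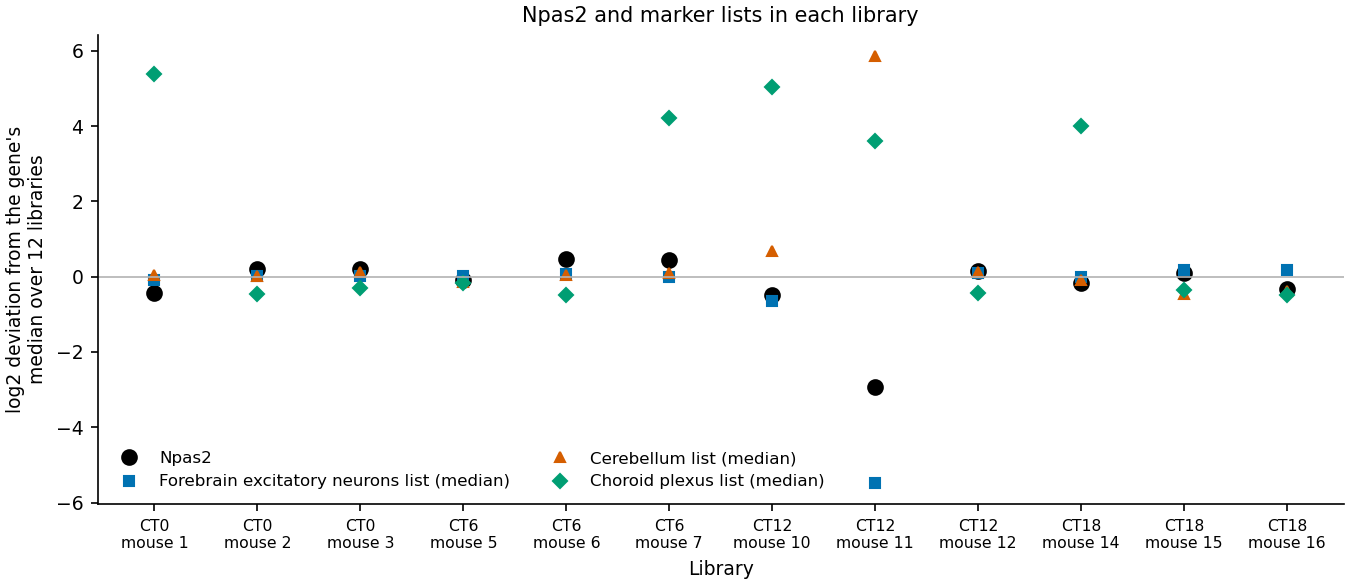
Deviation from the gene's median over 12 libraries on the log2 scale (vertical axis) in each library (horizontal axis) for Npas2 and for the medians of the forebrain excitatory neuron, cerebellum and choroid plexus marker lists. In CT12 mouse 11 Npas2 and the forebrain list (-5.48) are low and the cerebellum list is high (5.86), while the choroid plexus list is high in 5 libraries spread over the 4 times.

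Arntl2 was read by 3 probes on chromosome 6, which differ in the sequence they bind. The first 30 bases of each probe, as the files print them, and the last 24 bases of the probe that stands for the gene are shown, since that end is 21 of 24 A or T and holds a polyadenylation hexamer, in capitals. That probe, A_55_P2114799 at chr6:146781976-146782035 (mm9), carries a transcript accession other than that of A_55_P1977658 at chr6:146781053-146781112 and A_55_P2114796 at chr6:146776628-146776687, which share 1 accession.
A_55_P2114799 start: aagcagattgaaggtcagcctgggattcac
A_55_P2114799 end: ctgtcttttaaAATAAAtaaaaaa
A_55_P1977658 start: ttgatgtcctgtgtgacagtgacagcatag
A_55_P2114796 start: tcttcatccccagaagatgcaagcccttca

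The brightest probe, A_55_P2114799, had levels of 1.30, 1.61 and 1.38 at CT0, 1.58, 1.68 and 1.49 at CT6, 1.36, 0.67 and 1.50 at CT12, and 1.46, 1.60 and 1.49 at CT18. CT12 mouse 11 was again the lowest, and neighbouring times overlapped. A_55_P1977658 read -2.62, -2.17 and -2.38 at CT0, -2.37, -2.40 and -2.41 at CT6, -2.49, -3.17 and -2.64 at CT12, and -2.48, -2.40 and -2.48 at CT18. A_55_P2114796 read -3.83, -3.45 and -3.02 at CT0, -4.03, -3.69 and -3.71 at CT6, -4.29, -4.80 and -3.75 at CT12, and -3.73, -3.46 and -3.65 at CT18. The same library was lowest on all 3 probes.

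The probes disagreed on the size of the Arntl2 difference. At CT12 minus CT0 they gave -0.25 (A_55_P2114799), -0.38 (A_55_P1977658) and -0.85 (A_55_P2114796). Without CT12 mouse 11 the values were 0.003, -0.18 and -0.59, the first changing sign. No adjusted p over all probes was below 0.359 with limma in the 12 libraries, and the smallest exact permutation p of the 3, over the 4 times and unadjusted, was 0.0493, for A_55_P2114796, and 0.218 without CT12 mouse 11. The Feature Extraction error of that dim probe was 13.0% of its signal at the median array and 17.4% at the highest. The highest CT0 level of A_55_P2114796, -3.02, came from CT0 mouse 3, whose array had the largest share of spots well above background. In the deposited value table that mouse read 5.14 on this probe, below CT0 mouse 2 at 5.48, so the size of the difference depends on the scale. The part of that array in the difference was not tested.

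None of the 4 clock activators passed the F test or the rhythm test over all genes with limma, and none passed in either comparison of opposite times. At an unadjusted limma p under 0.05 the F test held 2, Arntl and Clock, where 10.6% of all genes did, and the rhythm test held the same 2, where 9.72% did. CT12 against CT0 held 1, Arntl, where 7.02% of genes were lower at that p, and CT18 against CT6 held 1, Clock, where 4.01% were higher. These counts use the brightest probe of each gene. The dimmer Arntl2 probe A_55_P2114796 had unadjusted limma p values of 0.0465 (F test), 0.0209 (rhythm test) and 0.0094 (CT12 against CT0). A_55_P1977658 had 0.0499 in CT12 against CT0. Without CT12 mouse 11 their adjusted limma p values in that comparison were 0.553 and 0.759. All 4 had a lower mean at CT12 than at CT0, as did 53.8% of genes, and without CT12 mouse 11 Arntl2 was no longer among them, where the share over all genes was 52.1%. Their median difference was -0.48 with all libraries and -0.16 without CT12 mouse 11, beside medians of -0.02 and -0.01 over all genes.

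At CT12 the repressors and outputs that these activators drive had mostly higher means than at CT0. Of 10 measured core clock repressors, all 10 had a higher mean at CT12 than at CT0, as did 11135 of 24090 genes. Their median difference was 0.55, beside -0.02 over all genes. The F test called 3 of the 10, namely Per2, Nr1d1 and Ciart, where 0.178% of all genes were called. Ciart, which encodes the inhibitor CHRONO, was higher at CT12 than at CT0 by 1.86 (limma, adjusted p 0.00424). Without CT12 mouse 11, 4 of the 10 passed the F test, with Nr1d2 added (limma, adjusted p 0.0310), where 0.245% of all genes passed. Of 7 D-box and ROR factors, 6 had a higher mean at CT12, beside the same 11135 of 24090 genes. Dbp, a PAR bZIP output factor driven through E-boxes, passed with all libraries (limma F test, adjusted p 0.0471) but not without CT12 mouse 11 (0.0605). With 1 of the 12 libraries left out in turn, Ciart passed the F test in 8 of 12 fits, Nr1d1 in 5, Per2 in 2 and Dbp in 1.

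Per mouse, Nr1d2 levels were 1.13, 1.06 and 1.15 at CT0, 1.46, 1.37 and 1.50 at CT6, 1.89, 2.39 and 1.82 at CT12, and 1.51, 1.44 and 1.39 at CT18. Its CT12 mice were wholly the highest and its CT0 mice wholly the lowest. Nr1d1 levels were 0.16, 0.26 and 0.16 at CT0, 0.93, 1.10 and 1.09 at CT6, 0.56, 0.86 and 0.72 at CT12, and -0.17, 0.05 and -0.10 at CT18. Here the CT6 mice were the highest and the CT18 mice the lowest, with no overlap between any neighbouring times. Nr1d1 was lower at CT18 than at CT6 by 1.11 on the log2 scale (limma, adjusted p 0.00578), and its cosine peak lay at 7.67 h, against 12.0 h for Nr1d2.

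Arntl was low in the mice in which Nr1d2 was high. Over the 11 libraries without CT12 mouse 11, Nr1d2 had the lowest correlation with Arntl of the 16094 genes with a RefSeq symbol, at r = -0.93, and over all 12 libraries r was -0.91. On Nr1d2 the CT12 mice and the CT0 mice each formed a cluster of their own, so these values describe the order of the times and give no test. Within the 6 mice of CT6 and CT18, which overlapped, r was -0.58 and rho -0.83 (exact permutation p 0.194 and 0.0583, adjusted over 2 relations 0.194 and 0.117), and r was -0.04 without the 2 mice farthest from the median of Nr1d2. The relation was not shown within that cluster. With the mean of each time taken out of all 12 mice, r was -0.34.

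Clock was lowest at CT6, where Nr1d1 was highest. No time overlapped another on Nr1d1, so the relation cannot be tested apart from time, and no relation over all mice is given. With the mean of each time taken out, r was 0.10.

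**Figure D4:**
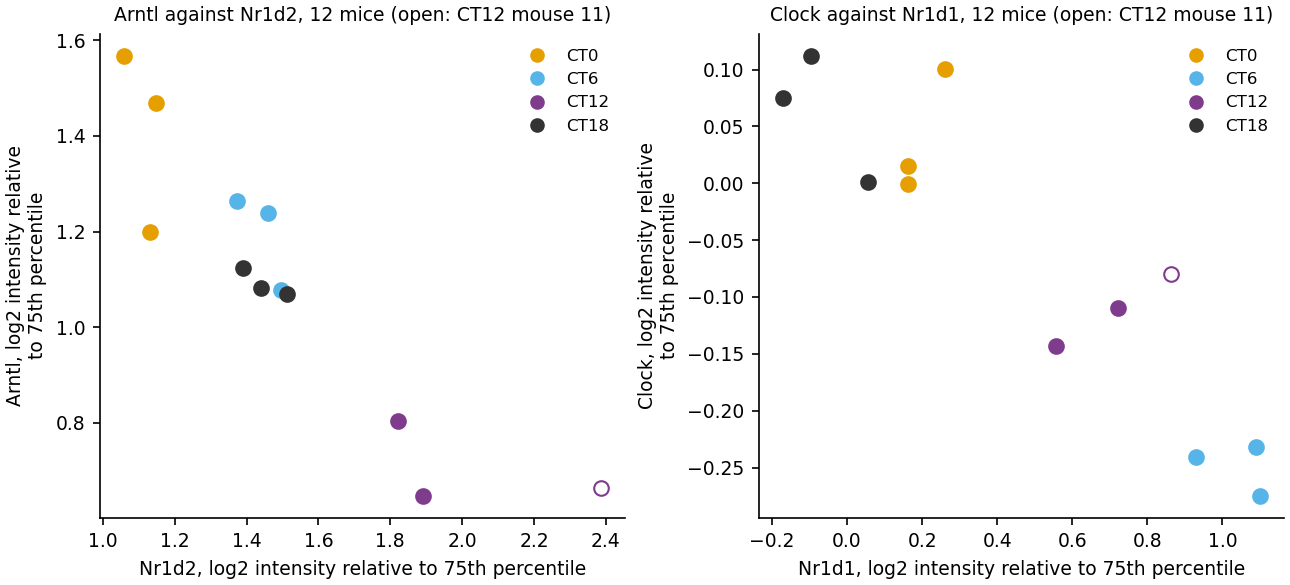
Each point is a mouse: Arntl against Nr1d2 on the left and Clock against Nr1d1 on the right, both axes in scaled log2 intensity, coloured by time, with CT12 mouse 11 open. On the left the CT12 mice are lowest in Arntl and highest in Nr1d2 and the CT0 mice are lowest in Nr1d2, and the CT0 and CT18 mice lie apart from the CT6 and CT12 mice on the right.

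Among the other named partners, Dbp levels were 4.54, 4.32 and 4.06 at CT0, 5.04, 5.35 and 5.18 at CT6, 5.57, 5.92 and 5.58 at CT12, and 4.50, 5.02 and 4.69 at CT18. Its CT12 mice were wholly above the rest, opposite to Arntl, and over the 9 mice of the other times r with Arntl was -0.55 and rho -0.28 (exact permutation p 0.130 and 0.463, adjusted 0.194 and 0.463), with r = -0.56 after leaving out the 2 mice farthest from the median of Dbp. Per2, a target repressor, read -1.21, -1.38 and -1.28 at CT0, -1.44, -1.42 and -1.53 at CT6, -0.71, -0.70 and -1.09 at CT12, and -0.51, -0.66 and -0.56 at CT18. Its CT18 mice were the highest and its CT6 mice the lowest, and Per2 was higher at CT18 than at CT6 by 0.88 (limma, adjusted p 0.0239).

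Rora, which encodes the activating receptor that competes with REV-ERB for the element shown above, read 0.50, 1.15 and 1.10 at CT0, 0.65, 1.13 and 1.23 at CT6, 2.11, 3.08 and 1.49 at CT12, and 0.72, 0.90 and 0.55 at CT18. All 3 CT12 mice were the highest, while the difference from CT0 of 1.31 did not pass (limma, adjusted p 0.314). Its 2 highest libraries were CT12 mouse 11, with the cerebellar list above its median by 5.86, and CT12 mouse 10, where the thalamic list was above its median by 1.43. The part of these tissues in the Rora values was not tested.

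**Figure D5:**
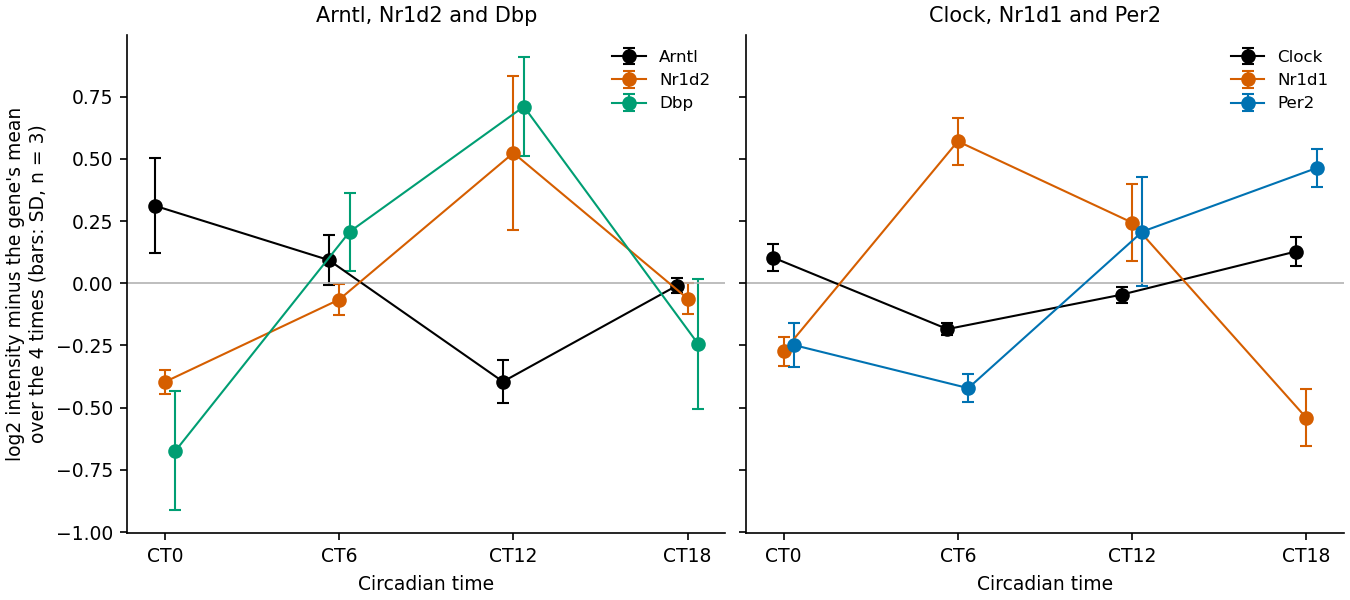
Mean log2 intensity at each time minus the gene's mean over the 4 times (vertical axis, bars are SD, n = 3 mice) against circadian time, for Arntl, Nr1d2 and Dbp on the left and Clock, Nr1d1 and Per2 on the right. Arntl is lowest at CT12 where Nr1d2 and Dbp are highest, and Clock is lowest at CT6 where Nr1d1 is highest.

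Other bHLH-PAS genes, relatives of the activators in hypoxia, dioxin and neuronal pathways, were mostly without a call. Of 14 measured of 15, 4 had a higher mean at CT12 than at CT0, where 11135 of 24090 genes did, with a median difference of -0.13. The F test called 1, Hif3a, a regulator of the hypoxia response, where 0.178% of all genes were called. Hif3a was higher at CT12 than at CT0 by 2.08 (limma F test, adjusted p 0.0329) and passed in 3 of 12 fits with 1 library left out. Of 20 coregulators of the CLOCK and ARNTL pair, none passed the limma F test or the rhythm test, and 3 and 1 had an unadjusted limma p under 0.05, beside 10.6% and 9.72% of all genes. Nampt, an enzyme of NAD synthesis driven by the clock, had the smallest F test p of that list and differed between CT18 and CT6 by 0.38 (limma, adjusted p 0.163), with a cosine peak at 19.7 h.

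The genes whose levels followed each activator most closely over the 11 libraries without CT12 mouse 11 are given as a description. For Arntl these were Pcdha9, a clustered protocadherin, Card10 and Dtx3, at r = 0.93, 0.93 and 0.92, and over all 12 libraries r was 0.90, 0.44 and 0.94. The lowest after Nr1d2 were Tmem204 (r = -0.93) and Sgk1 (r = -0.89), a kinase induced by glucocorticoids. Sgk1 was higher at CT12 than at CT0 by 1.58, with a limma F test adjusted p of 0.0393 over 12 libraries and 0.0570 over 11.

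For Clock the most alike were Gdf9, Prkd1 and H2bc4 (r = 0.93, 0.93 and 0.92), and over 12 libraries r was 0.79, 0.60 and 0.92. Each had a lower mean at CT6 than at CT18, as Clock did, which the choice by r made likely. For Npas2 they were Dtl, Bmp3 and Cacng3, an auxiliary subunit of AMPA receptors, at r = 0.99, 0.98 and 0.97. These 3 also had their lowest mean at CT12 with all libraries in, a mean that includes CT12 mouse 11, and r over 12 libraries was 0.99, 0.96 and 0.99. For the brightest Arntl2 probe they were Gsk3a, Hgs and Lhfpl4 (r = 0.97, 0.95 and 0.94), and over 12 libraries r was 0.79, 0.12 and 0.80. Npas2 and Arntl2 had r = 0.94 over 12 libraries and 0.64 without CT12 mouse 11 (permutation p adjusted over 26 relations 0.199), where rho was 0.64 (adjusted 0.194), so the closer relation rested on that library.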

How the data were processed

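Total RNA from 12 hippocampi was hybridised to 1-colour Cy3 arrays. Per the file headers, Agilent Feature Extraction 10.7.3.1 made the deposited processed signal, an intensity with the background subtracted and spatial trends removed, with probe coordinates on mm9. Other deposited columns used were local background and error intensities and spot flags. The deposited value table holds log2 values whose columns share a median of 5.36; its scale step is not stated, and each column correlated best with its own array. The 3 slides held 1 array of each time, at 1 position per time, so position and time cannot be told apart.

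Each processed signal was taken to log2 and set against the 75th percentile of its array. Of 55681 probes, 33966 were well above background on all arrays of 1 time. The brightest probe stood for its gene, in 24090 genes. R 4.3.3 with limma 3.58.1 fitted 1 mean per time; p-values were adjusted by Benjamini-Hochberg over all genes and called under 0.05. Names were updated through RefSeq for 29676 probes. The members and lists, written from general knowledge, were chosen with earlier results of these data known. Named genes were the members, 5 partners (Nr1d1, Nr1d2, Rora, Per2 and Dbp), list genes that passed or had the 3 smallest F test p values, and the most correlated genes. Some genes that this rule names are not reported here. Relations across mice numbered 26, with 2 more within sets of times, chosen after the values were seen. The lists of astrocytes, oligodendrocytes, microglia, endothelial cells, inhibitory neurons and blood had median deviations of -0.88 to 1.51 (log2) in the 12 libraries. Both extremes, -0.88 for microglia and 1.51 for blood, came from CT12 mouse 11, where the oligodendrocyte list lay at 0.87. Some of the lists that moved with a member's difference are given beside it. Mice were separate animals, and the number of arrays limits the precision. The F test, the rhythm test and the comparison of CT12 with CT0 were tried on simulated gene values.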

Additional observations from a re-analysis of the deposited data

How the results depend on the processing

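Of 388 member results under an alternative, 379 kept their direction and their side of the threshold. None of the 16 member results passed in the main fit, so keeping that side means only that they stayed uncalled. The F test and the rhythm test have a side but no direction. Arntl passed in 3: the rhythm test without CT12 mouse 11 and CT0 mouse 1 (adjusted p 0.0482), and CT12 against CT0 with normexp (-0.66, adjusted p 0.0449) and without CT12 mouse 12 (adjusted p 0.0440), where the adjusted p otherwise ranged up to 0.844. Its difference ranged from -0.81 to -0.63 when 1 library was left out. Clock at CT18 against CT6 passed with slide as a block without CT12 mouse 11 (0.31, adjusted p 0.0498; up to 1 elsewhere). Median centring moved the median of all genes to 0.19 for CT12 against CT0; Clock then read 0.0628, which is -0.13 relative to that median, Arntl -0.50, which is -0.68, and Arntl2 at CT18 against CT6 0.0226, against 0.0218 with the mean of its probes. Arntl2 at CT12 against CT0 read 0.00325 without CT12 mouse 11 and 0.0626 with slides blocked as well, and its values ranged from -0.41 to 0.00325 when 1 library was left out. Settings without 2 libraries, or with slides blocked and CT12 mouse 11 left out, were chosen after the data were seen. Npas2 had no value with the filter on all 12 arrays.

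Counts of genes called, over all genes, moved more. The F test called 43, with 8 after median centring, 2 with no filter, 17 with slide as a block and 67 with slide as a block without CT12 mouse 11; leaving out 1 library gave 0 to 120, and the 4 settings at 0 held 1805 to 2057 genes at an unadjusted limma p under 0.05. The rhythm test called 17, with 6 (quantile normalization and the deposited table), 3 (median centring), 11 (normexp), 5 (no filter), 27 (trend and robust), 43 (without 2 libraries), 121 (block without CT12 mouse 11) and 0 to 68 on leaving out 1; without CT18 mouse 14, at 0, 1789 had an unadjusted p under 0.05. CT12 against CT0 called 15, with 7 (quantile, median centring, deposited table), 1 (no filter), 9 (block without CT12 mouse 11), 0 (without 2 libraries, where 2375 had an unadjusted limma p under 0.05, and with only the 6 arrays compared, where 944 did) and 1 to 80 on leaving out 1. CT18 against CT6 called 32, with 54 (quantile), 3 (median centring), 49 (normexp), 53 (deposited table), 11 (no filter), 65 (above background on all arrays), 68 (trend and robust), 219 (without 2 libraries), 664 (block without CT12 mouse 11), 59 (only the 6 arrays) and 1 to 300 on leaving out 1. Under 24 alternatives Ciart passed the F test in 20, Nr1d1 in 15, Hif3a in 10, Per2 in 9, Dbp in 5 and Nr1d2 in 2. Mice could not be paired, since the times share no mouse numbers, but arrays were paired by slide, and slide as a block called 0 of the 4 members.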
